A study of Homo sapiens with 18 samples.

Results

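The genes described here encode the machinery that moves new proteins into the endoplasmic reticulum (ER) and ships them onward in coated vesicles. They were taken from a list of 48 genes, with every probe set annotated to exactly one of them. Of these, 46 genes had such a probe set, 85 probe sets in all, among the 22283 probe sets and the 11963 genes with a probe set of their own in the whole series. SEC61G and KDELR2 had no probe set of their own here and were not analysed. Above the level filter that was set for all genes, 44 of the genes were tested among 7178 genes. SSR3 and LMAN1 lay below it.

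The cells were SH-SY5Y, an established human line from a neuroblastoma, whose cells resemble noradrenergic neurons. Total RNA was measured on Affymetrix oligonucleotide arrays in 6 groups of 3 arrays each: untreated cells at 3, 24 and 48 h, and cells exposed to 5 ppm sarin (GB) for 3, 24 and 48 h. Sarin is an organophosphate nerve agent that inhibits acetylcholinesterase. The series follows its effect over time. The labels name 6 flasks beside the 3 arrays of a group and do not tie arrays to flasks, so a p-value here weighs a difference against the scatter of 3 arrays, which may be technical. All groups come from this single line.

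A secreted or membrane protein is recognised as it leaves the ribosome, when the signal recognition particle binds its signal sequence and takes it to the ER membrane. There it passes through the Sec61 channel, its signal is cut off by signal peptidase, and an N-linked sugar tree is attached by oligosaccharyltransferase. Cargo receptors collect finished proteins into vesicles coated by COPII, which bud from the ER towards the Golgi, while COPI-coated vesicles bring escaped ER proteins and receptors back. Neuron-like cells that store and release transmitters pass many membrane and granule proteins along this route. The transcription factors XBP1 and ATF6 are known to bind an 8-base unfolded protein response element, TGACGTGG, and to raise many genes of this machinery when unfolded proteins pile up in the ER.

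The start sites of the genes were read for that element, on both strands, in RefSeq promoters of build GRCh38.p14 that run from 250 bases before to 50 bases after each start. Of the 43 genes with a promoter in that table, 10 held it (23.3%), against 0.729% of all 35116 promoters and 0.927% of 27305 genes. These were SRP19, SEC62, SSR3, SSR4, KDELR3, COPA, COPB1, COPB2, SEC23A and SEC24A. Of 94 other genes of the same pathways, 6 held it (6.38%). The letters of the cAMP response element (TGACGTCA), of the ER stress response elements ERSE and ERSE-II and of the sterol response element were in 0 of the 43, and the CCAAT box in 48.8% of them against 39.7% of all genes. Those 4 elements are rare, in 2.25%, 0.0916%, 0.0696% and 0.0586% of all genes, so 0 of 43 says little. Of 21 ER stress genes, 1 held TGACGTGG (4.76%), 4 held ERSE and 3 held ERSE-II. A match is a stretch of letters and was not tested for binding.

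The 250 bases before the start are printed, 5′ to 3′ on the strand of the gene, for the 4 carriers whose signal changed at 24 h. Capitals mark the element, which reads CCACGTCA where it lies on the other strand.
SRP19, chr5:112861037-112861286, plus strand: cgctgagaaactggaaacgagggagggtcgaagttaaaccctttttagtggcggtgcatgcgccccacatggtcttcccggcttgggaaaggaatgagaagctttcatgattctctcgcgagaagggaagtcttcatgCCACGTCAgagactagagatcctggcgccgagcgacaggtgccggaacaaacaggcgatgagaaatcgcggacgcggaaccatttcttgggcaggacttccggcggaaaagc
SEC62, chr3:169966557-169966806, plus strand: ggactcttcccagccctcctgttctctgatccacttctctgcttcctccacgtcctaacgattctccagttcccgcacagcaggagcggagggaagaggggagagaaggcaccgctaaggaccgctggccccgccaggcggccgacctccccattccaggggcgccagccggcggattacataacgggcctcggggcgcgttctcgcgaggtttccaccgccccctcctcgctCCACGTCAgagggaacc
KDELR3, chr22:38467846-38468095, plus strand: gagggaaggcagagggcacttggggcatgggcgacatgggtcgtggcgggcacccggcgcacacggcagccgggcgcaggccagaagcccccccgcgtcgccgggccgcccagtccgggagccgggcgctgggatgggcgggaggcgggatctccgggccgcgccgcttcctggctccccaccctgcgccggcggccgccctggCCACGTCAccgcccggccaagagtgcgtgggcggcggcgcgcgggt
COPB1, chr11:14499812-14500061, minus strand: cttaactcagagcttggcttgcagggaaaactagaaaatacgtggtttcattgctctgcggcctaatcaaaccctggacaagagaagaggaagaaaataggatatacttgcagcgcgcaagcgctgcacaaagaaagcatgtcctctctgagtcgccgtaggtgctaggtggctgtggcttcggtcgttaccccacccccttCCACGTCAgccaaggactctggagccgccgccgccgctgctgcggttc

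The other carriers are shown by the bases around the element, to set its flanks side by side across steps of the pathway. COPB2 is the one with 2 elements.
COPA, chr1:160343222-160343261, minus strand: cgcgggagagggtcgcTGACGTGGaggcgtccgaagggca
COPB2 far site, chr3:139389820-139389859, minus strand: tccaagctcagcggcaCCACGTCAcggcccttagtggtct
COPB2 near site, chr3:139389627-139389666, minus strand: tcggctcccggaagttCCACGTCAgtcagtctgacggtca
SEC23A, chr14:39103216-39103255, minus strand: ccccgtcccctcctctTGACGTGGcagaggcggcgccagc
SEC24A, chr5:134648590-134648629, plus strand: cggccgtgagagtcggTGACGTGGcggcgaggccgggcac
SSR3, chr3:156554143-156554182, minus strand: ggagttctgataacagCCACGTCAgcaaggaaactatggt
SSR4, chrX:153794523-153794562, plus strand: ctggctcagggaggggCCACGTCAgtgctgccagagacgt

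In SRP19 the element began 112 bases before the start, in COPB1 48, in KDELR3 46 and in SEC62 17 bases before it. All 4 carried it on the strand opposite to the gene. In COPA, COPI's largest subunit, it lay 5 bases past the start.

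The arrays differed in quality, which touches the results at 48 h and in part at 24 h, those between control cells included. The ratio of GAPDH signal at the 3′ end to that at the 5′ end, a measure of RNA integrity, was 2.15 to 2.3 on the 3 sarin arrays at 48 h and 0.696 to 1.17 on the other 15, and the ACTB ratio was 3.68 to 4.67 against 0.79 to 1.64. On those 3 arrays the background, taken from bacterial probe sets with no target added, was 410.7 to 443.2 signal units against 97 to 182.9 on the rest. They correlated with the rest at r of 0.664 to 0.757, whereas pairs among the other 15 reached 0.909 to 0.965. At 24 h sarin arrays had a GAPDH ratio of 1.05 to 1.17 where controls had 0.811 to 0.941, and a median signal of 314.9 to 345.3 against 397 to 413.9. In that median the 24 h controls also stood above the other controls, which were at 310.2 to 339.2 (3 h) and 347 to 373 (48 h). The ACTB ratio of controls was 0.79 to 1.14 at 3 h, 1.46 to 1.5 at 24 h and 1.07 to 1.44 at 48 h. Of the markers of noradrenergic neuroblastoma cells, 11 of 11 measured were above background on all 9 control arrays. The same held for 8 of 11 markers of substrate-adherent cells, the other cell form of this line, for 4 of 5 of fibroblasts, and for 1 of 4 each of glial and blood cells.

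**Figure D1:**
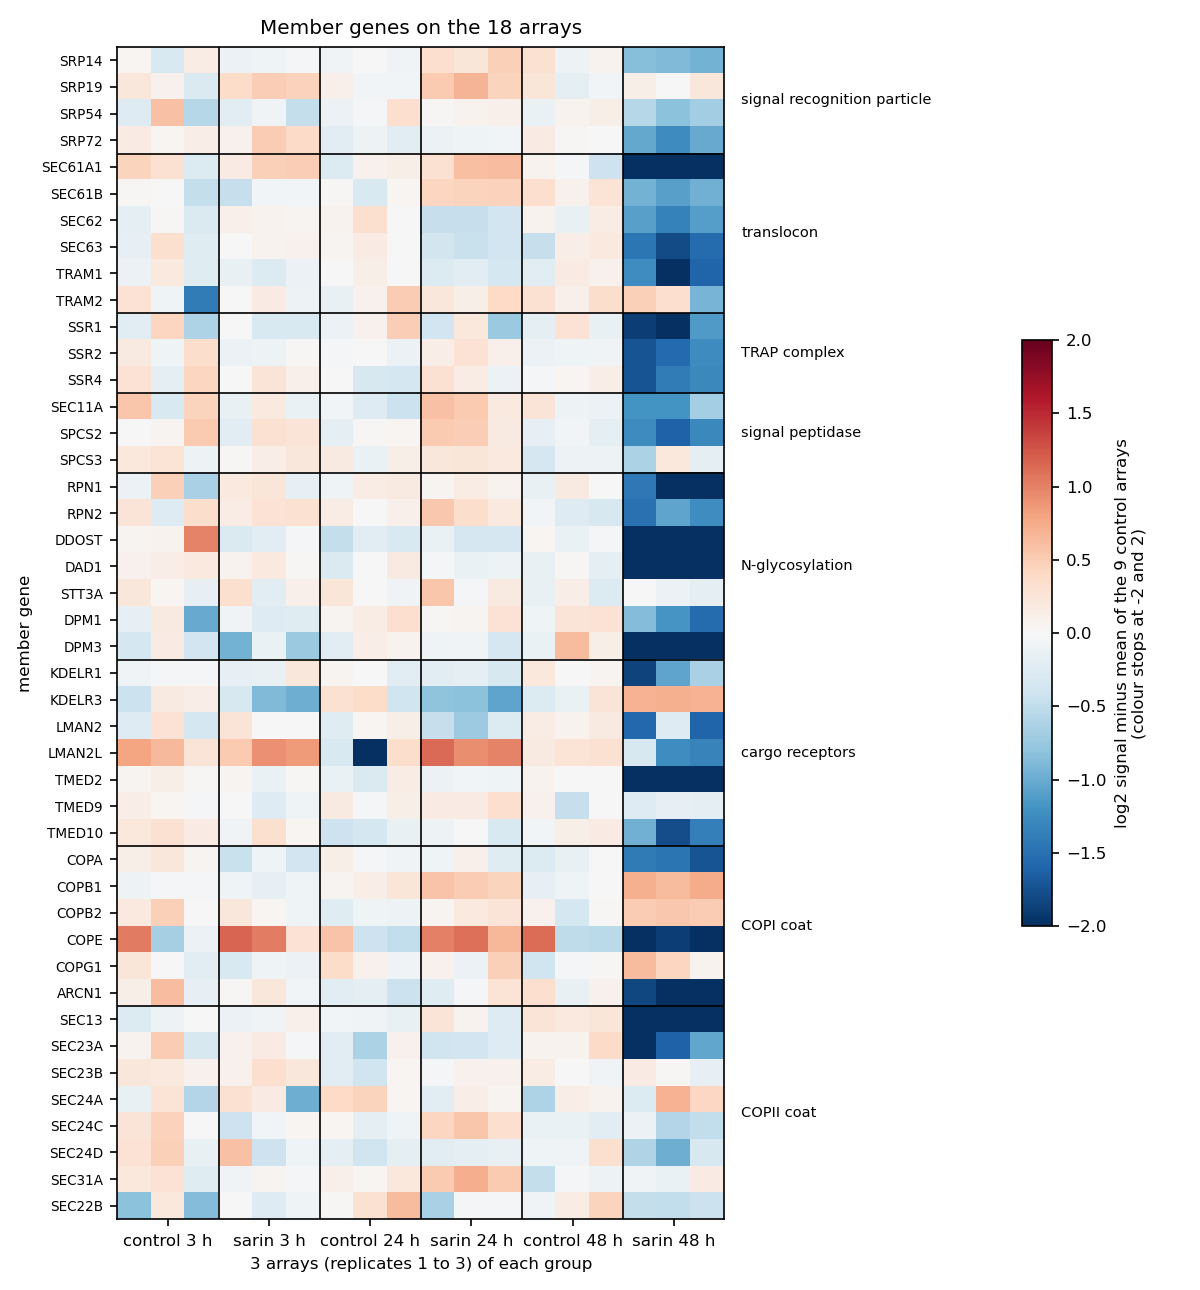
Heat map of the 44 genes tested (rows, by step of the pathway) on the 18 arrays (columns, 3 per group), coloured by log2(signal + 16) minus the mean of the 9 control arrays, from -2 to 2. The median gene stands between -1.19 and -1.05 on the 3 sarin arrays at 48 h and between -0.12 and 0.17 on the other 15, while COPB1 and COPB2 are red at 48 h.

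After 24 h of sarin, the pathway did not move as a block: 5 genes rose and 2 fell, spread over 5 of its steps. The genes that rose were SRP19, SEC61B, SEC11A, LMAN2L and COPB1, and those that fell were SEC62 and KDELR3. That makes 7 of 44 genes called (15.9%), where 8.67% of all genes tested were called, 4.11% higher and 4.56% lower. A gene is called when its adjusted p in limma, fitted over all arrays and adjusted by Benjamini-Hochberg over all genes tested, is under 0.05. The median log2 change was 0.11 for the 44 genes and -0.07 for all genes. Across all genes it differed with signal level, by the equal classes of mean level described below. In the upper 3 classes the median was 0.15 for 28 of the genes and 0.09 for all genes. There 4 of the 28 were called higher and 1 lower (all genes 8.68% and 4.78%). In the other 7 classes it was 0.05 for 16 genes and -0.15 for all genes, with 1 higher and 1 lower (all genes 2.15% and 4.46%). Values with ± are standard errors for log2 changes of log2(signal + 16), with n = 3 arrays a group, and SDs for signals. The arrays of the groups did not overlap for 15 genes that were higher and 6 that were lower with sarin, against 40.4% of all genes in either direction. At an unadjusted p under 0.05 there were 15 of 44 (all genes 26.4%). In the fit of all probe sets 6 of the 85 were called (all probe sets 3.37%), 3 higher (1.63%) and 3 lower (1.75%).

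At the step of signal recognition, SRP19, a protein of the particle that lets SRP54 join its RNA, was at 3527.9, 3943 and 3345.8 signal units with sarin and at 2615.8, 2360.6 and 2360.2 in control cells. All 3 sarin arrays lay above all 3 controls. The log2 change was 0.56 ± 0.15, with a limma adjusted p of 0.0244, a call lost without control replicate 2 or 3 or sarin replicate 1 or 2 (up to 0.116). SRP14, which holds the domain that slows translation, was at 0.41 ± 0.14 and missed the threshold (limma adjusted p = 0.0709). SRP54, the subunit that grips the signal sequence, was at 0.00 ± 0.21 and SRP72 at 0.09 ± 0.12.

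In the channel, SEC61B, the small beta subunit of Sec61, rose by 0.53 ± 0.15 (limma adjusted p = 0.0371). Its signal was 6003.7, 6068.3 and 6093.1 with sarin against 4520, 3600.7 and 4550.2. The sarin arrays lay close together and above the controls. The call was lost without any one of these 6 arrays (limma adjusted p up to 0.185). SEC61A1, the subunit that forms the pore, was at 0.54 ± 0.21 and was not called (limma adjusted p = 0.114).

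SEC62, a membrane partner of the channel that helps short proteins through after translation, fell by its brighter probe set. That set was at 1385.5, 1383.1 and 1463.3 with sarin and at 1992.1, 2378.7 and 1902.3 without, a log2 change of -0.56 ± 0.14 (limma adjusted p = 0.0217). Its dimmer probe set went the other way, at 1248, 1727.8 and 1169.2 with sarin against 942.6, 591.4 and 634.4. In the fit of all probe sets that set rose by 0.93 ± 0.25 (limma adjusted p = 0.0458) while the brighter one fell (0.0336), and the median of both gave 0.19, so the direction for SEC62 depends on the probe set. The fall was not called without control replicate 2 or sarin replicate 1 or 2 (limma adjusted p up to 0.121). SEC63, the channel partner that recruits the chaperone BiP, was at -0.47 ± 0.18 (limma adjusted p = 0.0947). TRAM1 and TRAM2, membrane proteins beside the channel, were at -0.33 ± 0.19 and 0.10 ± 0.36.

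SEC11A, a catalytic subunit of signal peptidase, rose by 0.68 ± 0.20 (limma adjusted p = 0.0442). It was at 13226.9, 12685.4 and 10095.4 with sarin and at 8505.8, 7381.5 and 6541.3 in control cells, with no overlap. The call was lost without any one of these 6 arrays but sarin replicate 3 (limma adjusted p up to 0.155). Its other probe set was at -0.11 ± 0.20 and was not called. The other signal peptidase genes were at 0.44 ± 0.17 (SPCS2) and 0.16 ± 0.18 (SPCS3), and neither was called.

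Of the genes of N-glycosylation, 0 of 7 were called at 24 h in limma, and 0 of 7 had an unadjusted p under 0.05. Their changes ran from -0.15 for DPM3, a subunit of the enzyme that makes dolichol-phosphate mannose, to 0.27 for RPN2, a subunit of oligosaccharyltransferase. In the TRAP complex, which sits beside the channel and aids some signal sequences, 0 of 3 were called, with changes from -0.47 (SSR1) to 0.34 (SSR4) and 0 of 3 at an unadjusted p under 0.05.

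The cargo receptors held the largest changes in each direction. KDELR3, one of the receptors that return escaped ER chaperones carrying a KDEL tail, fell by 0.98 ± 0.23 on the log2 scale (limma adjusted p = 0.0138). It was at 715.6, 711.1 and 602.3 with sarin and at 1558.1, 1637.6 and 953.5 in control cells. The next brightest of its 3 probe sets fell too, by 1.20 ± 0.27 (limma adjusted p = 0.0199), from 771.6, 863.5 and 1024.3 to 415.8, 311.3 and 403.4. Both sets thus stood below every control array of that time. The call was lost without control replicate 1 or 2 (limma adjusted p up to 0.0834). The dimmest set was at -0.69 ± 0.51 and was not called. KDELR1, another receptor of the family, was at -0.19 ± 0.22.

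LMAN2L, a lectin that helps glycoproteins leave the ER, rose by 1.83 ± 0.46 (limma adjusted p = 0.0198), and much of that rests on a single array. It was at 1203.7, 1043.7 and 1092 with sarin, and at 435.8, 84 and 694.2 in control cells, where the array of replicate 2 was below background. Without that array the change was 0.99 (limma adjusted p = 0.0757), without sarin replicate 1 or 2 it was 1.77 and 1.87 (0.0741 and 0.0661), and against the controls of 3 and 48 h it was 0.60 (adjusted p = 0.37). LMAN2, a related lectin, was at -0.46 ± 0.27, and the p24 proteins TMED2, TMED9 and TMED10, which line transport vesicles, were at 0.01, 0.14 and 0.17.

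COPB1, the beta subunit of the COPI coat, rose by 0.36 ± 0.11 (limma adjusted p = 0.04). It was at 8052.2, 7695.8 and 7387.6 with sarin and at 5665.1, 5943.5 and 6411 without. The shift was small, the groups did not overlap, and the call was lost without any one of these 6 arrays (limma adjusted p up to 0.143). It was also lost with the median of the gene's probe sets, with no level filter, after quantile normalization and with arrays scaled to spike-ins. COPE, the epsilon subunit, was at 1.03 ± 0.46 and was not called (limma adjusted p = 0.159): its control arrays were at 4944.3, 2507 and 2367.6, so that 1 of them was near the sarin arrays at 6738.4, 7129.5 and 5263.7.

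Of the COPII coat, 0 of 8 genes were called at 24 h, and 3 of 8 had an unadjusted p under 0.05. SEC31A, of the outer cage, was at 0.48 ± 0.15 (limma adjusted p = 0.0521), with 4388.9, 5032.3 and 4391.4 signal units against 3255.4, 3119.3 and 3504.1. SEC24C, an inner-coat adaptor that picks cargo, was at 0.52 ± 0.17 (limma adjusted p = 0.0576). SEC22B, a SNARE protein that fuses these vesicles with their target, was at -0.56 ± 0.24 (limma adjusted p = 0.15).

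**Figure D2:**
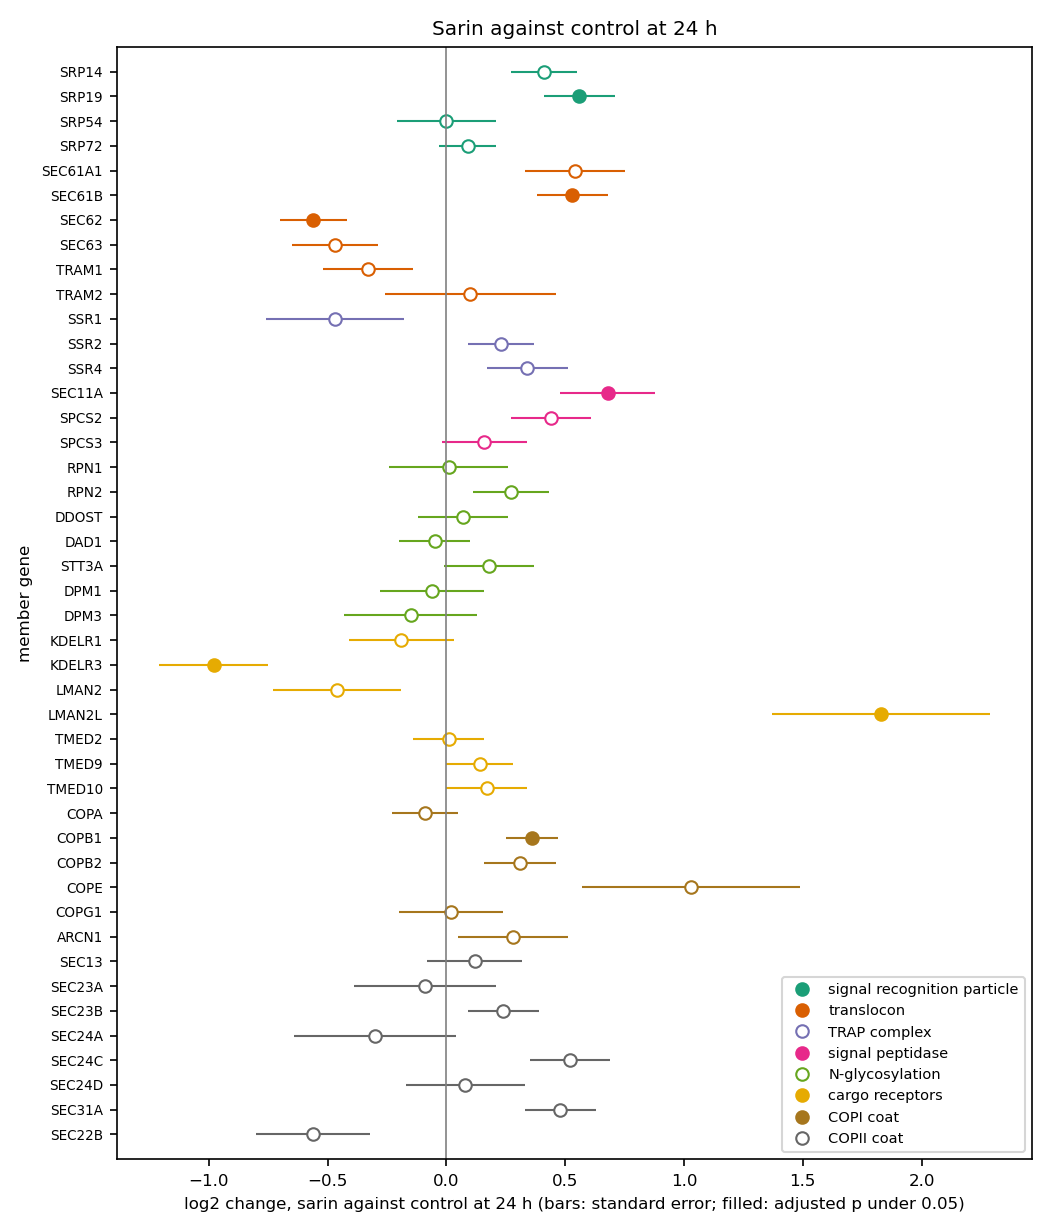
Log2 change of each of the 44 genes at 24 h, sarin against control (x axis, on the log2(signal + 16) scale), by step (colour). Bars are standard errors from limma with n = 3 arrays a group; filled points are the 7 called genes, with LMAN2L at 1.83 and KDELR3 at -0.98 at the ends.

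The calls at 24 h were sensitive to single arrays. Without control replicate 1, 2 or 3 of that time 3, 0 and 3 of the genes were called, and without sarin replicate 1, 2 or 3 it was 1, 1 and 5. The split of calls also moved with the scaling: 17 genes were higher and 1 lower when arrays were centred on their median, which moved the median of all genes from -0.07 to 0.22, 1 was higher and 2 lower after quantile normalization, and 1 was higher with arrays scaled to spike-ins. Summed signal of the 11 substrate-adherent markers was 39784 to 41473 with sarin and 64982 to 65926 without at this time, with 5 of the 7 tested lower. The part of this and of the RNA integrity ratio in the changes above was not tested.

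After 48 h most of the machinery was lower: 31 of 44 genes fell and 4 rose, and the median log2 change was -1.22 where that of all genes was -0.08. The falls reached every step, from signal recognition to both coats. Among genes above background on at least 1 sarin array, SEC13, COPE, TMED2, DAD1 and ARCN1 had the largest falls; DPM3, SEC61A1 and SEC23A were above background on no sarin array and have only a bound. With those 3 genes at their bound the median was -1.21. Of the 44 genes, 31 were above background on all 3 sarin arrays. The rest were not above it on some or all of them, and their falls are less certain. COPB1, KDELR3, COPB2 and COPG1 rose as scaled by the authors, but all 4 values turned negative when arrays were scaled to spike-ins. With arrays centred on their median none of the 4 was called, at 0.22 for COPB1, 0.19 for KDELR3, 0.03 for COPB2 and -0.05 for COPG1. At this time 70.7% of all genes tested were called, 37.8% lower and 32.9% higher, so the share called (79.5%) is near the background and the share lower (70.5%) is above it. All arrays had nearly the same mean signal (800.1 to 800.3, without the outer 2% at each end), so a fall is relative to the other signals of the array. In bulk RNA, fewer cells that express a gene and less of its RNA per cell cannot be told apart.

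In the channel, the pore subunit SEC61A1 was at 136.8, 92.8 and 98.5 signal units on the sarin arrays, not above background on any, against 1510.8, 1394.8 and 1079.8 in control cells of 48 h. That is at least 3.04-fold lower, a bound that sets the control mean against the background level of the sarin arrays (limma adjusted p = 8.99e-11). SEC61B fell by 1.23 ± 0.15 and remained measurable, at 2294.3, 2076 and 2274.5 against 5629.7, 4696.2 and 5347.4. TRAM1 fell by 1.70 ± 0.19 and SEC63 by 1.55 ± 0.18 in its brighter probe set, while TRAM2 was at -0.29 ± 0.36 and was not called.

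Among genes of N-glycosylation 6 of 7 fell. DPM3 was at 70.7, 43.6 and 111.9 against 1216.3, 2095.5 and 1449.2, at least 3.57-fold lower with all sarin arrays below background (limma adjusted p = 2.59e-10). DAD1, a small subunit of oligosaccharyltransferase, fell by 2.58 ± 0.15, from 5352.9, 5987 and 5191.6 to 1115.9, 925.9 and 720.9. These values were apart by far more than the spread within either group. DDOST and RPN1, further subunits of that enzyme, fell by 2.34 ± 0.19 and 2.04 ± 0.25, with RPN1 above background on 1 of 3 sarin arrays. STT3A, the catalytic subunit, was at -0.01 ± 0.19, at 956 ± 66.6 against 966 ± 142 (SD, n = 3), and was not called. Thus the subunits of one enzyme were not alike in their change on these arrays.

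Earlier in the route, 3 of 4 signal recognition genes fell: SRP72 by 1.16 ± 0.12, SRP14 by 0.98 ± 0.14 and SRP54 by 0.71 ± 0.21. SRP19 was at 0.12 ± 0.15 and was not called. All 3 TRAP genes tested fell, SSR1 by 1.73 ± 0.29, SSR4 by 1.52 ± 0.17 and SSR2 by 1.42 ± 0.14. SPCS2 and SEC11A of signal peptidase fell by 1.26 ± 0.17 and 1.04 ± 0.20, and SPCS3 was at -0.02 ± 0.18. SEC11A and SRP14 missed the threshold after quantile normalization.

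Cargo receptors split. TMED2 fell by 2.68 ± 0.15 (limma adjusted p = 2.38e-11), at 765.4, 1217.3 and 856.5 against 6265.9, 5905.6 and 5957.4. Its relative TMED9 was at 3410.2, 3614.7 and 3548.9 against 4308.4, 2937.2 and 4055.8, a change of -0.08 ± 0.14, and was not called. TMED2 was thus low on every sarin array, and TMED9 lay inside the range of its controls. TMED10, KDELR1, LMAN2 and LMAN2L fell by 1.44, 1.27, 1.27 and 1.22. With the median of a gene's probe sets in place of the brightest, LMAN2 was at -0.34 and was not called (limma adjusted p = 0.391). The LMAN2L call was lost without control replicate 2 or 3 or sarin replicate 2 or 3 of 48 h (limma adjusted p up to 0.0761), and 1 of its 3 sarin arrays was above background. KDELR3 rose instead, at 2044.5, 2085.5 and 2043.2 against 1036.2, 1147.5 and 1509.6, by 0.75 ± 0.23 (limma adjusted p = 0.0066). That call for KDELR3 was lost with the median of its probe sets (0.40, limma adjusted p = 0.186) and with arrays centred on their median (0.19, limma adjusted p = 0.44).

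The COPI coat was the step with calls in both directions in equal number. COPB1 rose by 0.78 ± 0.11, at 8912.4, 8465.3 and 9091 against 4823.4, 5109.8 and 5418.3 (limma adjusted p = 2.71e-06). COPB2, the beta-prime subunit of the outer coat, rose by 0.60 ± 0.15, at 2180.9, 2239.8 and 2189.3 against 1631.2, 1195.7 and 1567. COPG1, the gamma subunit, rose by 0.52 ± 0.22 (limma adjusted p = 0.0435), a call lost without control replicate 1 or 2 or sarin replicate 1 or 2 (up to 0.169). In contrast COPE fell by 2.77 ± 0.46, with 293.1, 893.5 and 425.9 against 7213.9, 2341.7 and 2296.7 and with 1 sarin array above background. With the median of its probe sets COPE was at -0.74 and was not called (limma adjusted p = 0.0725). ARCN1, the delta subunit, fell by 2.39 ± 0.23 and was not above background on every sarin array. COPA fell by 1.39 ± 0.14. The coat's subunits work in 1 complex, and their probe sets did not move together.

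In the COPII coat, 4 of 8 fell and 4 were not called. SEC13, which builds the outer cage with SEC31A, fell by 3.29 ± 0.20, at 218.4, 291 and 479.1 against 3263.3, 3118.4 and 3211.6 (limma adjusted p = 7.64e-11), with 1 sarin array above background. SEC31A itself was at 2892.6, 2766.7 and 3398.4 against 2187.6, 2993.2 and 2825.8, a change of 0.18 ± 0.15. Cage partners were thus apart, one low on every sarin array and the other overlapping its controls. SEC23A of the inner coat was at least 1.71-fold lower, with no sarin array above background, while its paralog SEC23B was at -0.02 ± 0.15. SEC24D and SEC22B fell by 0.68 ± 0.25 and 0.63 ± 0.24. The SEC24D call was lost without control replicate 3 or sarin replicate 2 (limma adjusted p up to 0.094), and that of SEC22B when control replicate 2 or 3, or sarin replicate 1 or 2, was left out (up to 0.116). SEC24A, SEC24C and SEC23B were not called, at 0.42, -0.24 and -0.02.

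The change at 48 h went with the signal level across all genes. Over 10 equal classes of genes by mean level, the median log2 change ran from 0.97 in the lowest to -1.14 in the highest. Set against the median of its own class, 30 of 44 genes were lower and the median difference was -0.48, or -0.47 with DPM3, SEC61A1 and SEC23A at their bound. In the upper 3 classes, which hold 28 of the genes, 22 were called lower (78.6%) against 66.3% of all genes at that level. In the other 7 classes 9 of 16 were lower (56.2%) against 25.5%. The genes are not spread evenly over these classes, so the pooled shares match level only roughly. The highest class held 13 of the genes, and 11 of them were called lower, against 81.2% of all genes there. Medians in that class were -1.23 and -1.14. The lowest class, with 11% of its genes called lower, held 0 of the 44. The difference from the class median was -2.84 for SEC13 and 1.92 for COPB1. For SRP72 and SEC61B it was -0.02 and -0.09, which puts their falls at the level of other bright genes. Summed marker signal also moved at 48 h: it was 50347 to 59904 with sarin against 107853 to 116312 for noradrenergic cells, 25658 to 28872 against 64266 to 87838 for substrate-adherent cells, and 1112 to 1606 against 606 to 794 for glial cells. For fibroblasts it was 5351 to 5959 against 6511 to 7808, and for blood cells 2064 to 2534 against 1043 to 1426, and 0 control arrays had S100B (glial) or CD14 (blood) above background. The glial and blood sums are over 4 genes each, and genes not above background count in them. Background for a single probe set was 410.7 to 443.2 on these sarin arrays and 103.1 to 161.1 on their controls. No change of cell type is therefore read from the glial and blood sums. The part of RNA integrity, background and cell makeup in these changes was not tested.

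**Figure D3:**
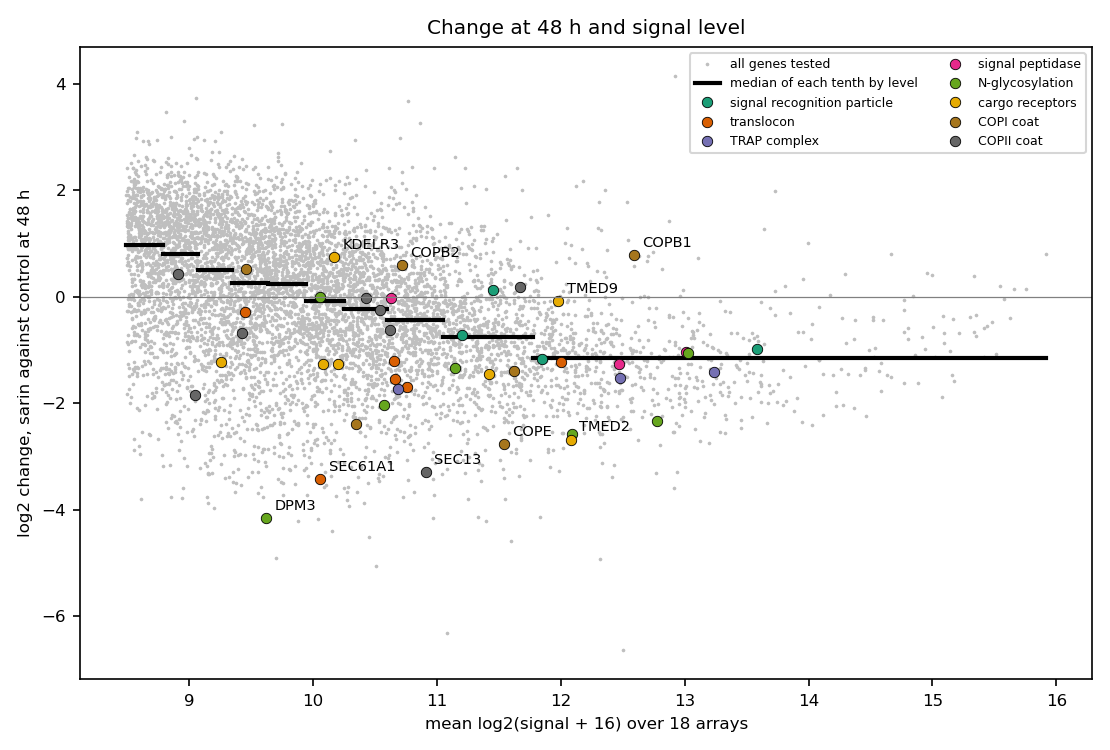
Log2 change at 48 h, sarin against control (y axis), against the mean log2(signal + 16) over 18 arrays (x axis) for all 7178 genes tested (grey) and the 44 genes by step (colours). Black bars are medians of 10 equal classes of genes by level, from 0.97 to -1.14; SEC13 lies far below its bar and COPB1 above it, and the points of DPM3, SEC61A1 and SEC23A are fitted values of sarin signals not above background.

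At 48 h the call depended on which probe set was read for several genes. Of the 85 probe sets, 47 were called lower and 14 higher, 61 in all where 63.2% of all probe sets were called, 21.5% lower and 41.7% higher. Of the 25 genes with several probe sets, 15 had all of them on the same side of 0, and 5 had one called higher and another called lower: COPB1, SEC24D, SEC62, SEC63 and SRP72. For COPB1 the dimmer set fell by 0.98 ± 0.19, at 1706.9, 1669.9 and 1684.1 against 2370.5, 3989.3 and 3982.4, while the brighter one rose. For SEC62 the dimmer set rose by 1.74 ± 0.25, to 2219.6, 2501.6 and 2581.5 from 829.3, 686.3 and 644.6, while the brighter one fell by 1.20 ± 0.14. In SEC63 a dimmer set rose by 0.62 ± 0.22, from 580.6, 660.4 and 569.9 to 1026.5, 871.1 and 910.1, while its brightest set fell by 1.55. The higher sets of SEC24D were not above background in either group. With the median of a gene's probe sets, COPB1 was at -0.10, SEC62 at 0.27 and SEC63 at 0.12, each with its sign turned.

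**Figure D4:**
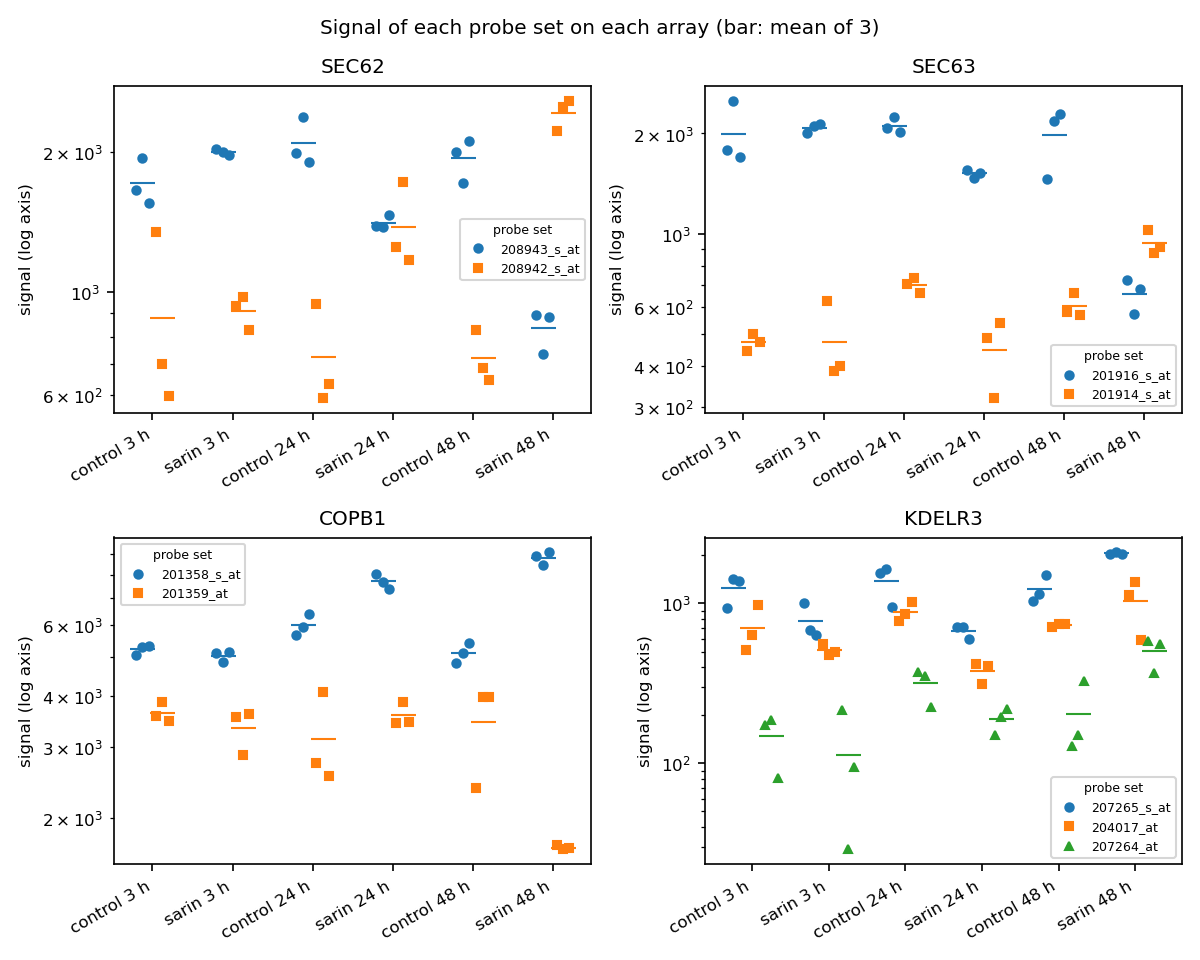
Signal (log axis) of each probe set of SEC62, SEC63, COPB1 and KDELR3 on each of the 18 arrays, by group; bars are means of 3 arrays. The 2 SEC62 sets cross at 48 h, with 735.2 to 889.9 on one and 2219.6 to 2581.5 on the other, while the 2 brighter KDELR3 sets are both lower with sarin at 24 h.

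After 3 h no gene of the machinery was called: 0 of 44, with 0% of all genes called in limma. At an unadjusted p under 0.05 there were 5 of 44, against 10.4% of all genes. Changes ran from -0.69 for KDELR3 to 0.74 for COPE, with a median of -0.04 against -0.01 for all genes. The groups did not overlap for 4 genes, SRP19 and SEC62 being higher and DDOST and COPA lower with sarin, against 14.1% of all genes. SRP19 was at 3158, 3436.3 and 3384.2 with sarin against 2871.8, 2582.4 and 2006.6 (0.43 ± 0.15, limma adjusted p = 0.339). KDELR3 was at 1009.3, 679.7 and 632.4 against 931.9, 1427.3 and 1389.8, with 1 sarin array inside the range of the controls.

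The sarin effect at 24 h was set against that at 3 h in the same fit. Of the 44 genes 0 were called in that difference (limma, all genes 0.836%), and 14 had an unadjusted p under 0.05 against 12.7% of all genes. The smallest adjusted p was that of SEC62, at 0.0798 for a difference of -0.78 ± 0.20, and LMAN2L, SEC11A and SEC22B were at 1.63, 0.94 and -0.94. Without control replicate 2 or 3 of 3 h, 3 and 1 of the genes were called. Between 48 and 24 h, 31 of 44 differed, 29 lower and 2 higher, against 63.7% of all genes (33.2% lower and 30.5% higher). In control cells alone, 1 of 44 genes differed between 24 and 3 h: DDOST was lower by 0.71 on the log2 scale (limma adjusted p = 0.0369; all genes 5.68%), and its control arrays of 3 h were at 10061.1, 10269.1 and 19458.1. That call was lost without the last of those arrays, control replicate 3, or without any one control array of 24 h (limma adjusted p up to 0.12), and without control replicate 2 of 3 h there were 5 calls. Between 48 and 3 h in control cells 0 of 44 were called (limma, all genes 0.488%), with 6 of 44 at an unadjusted p under 0.05 against 12.6%, and 1 was called without control replicate 2 of 3 h.

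The neighbours of these genes in the same pathways were little called at 24 h, at 2.44% against 8.67% of all genes tested. Of 82 tested, BCAP31, an ER export and quality-control protein, rose by 0.97 ± 0.25 and STX18, an ER SNARE of the return route, fell by 0.58 ± 0.16. At 48 h 44 of the 82 fell (53.7%) and 11 rose, with a median of -0.74 against -0.08 for all genes. The share called (67.1%) was near that of all genes (70.7%), of which 37.8% were lower and 32.9% higher. In targeting and insertion 15 of 19 fell (78.9%). SRPRA, the docking receptor for the signal recognition particle, fell by 2.74 ± 0.17. MPDU1, needed for use of dolichol-linked mannose, was at least 4.73-fold lower, and TUSC3, an oligosaccharyltransferase subunit, fell by 2.36 ± 0.13. YKT6, a SNARE, was at least 2.88-fold lower, CNIH4, a cargo receptor, fell by 2.37 ± 0.22, and ARFGAP1, which sets off uncoating of COPI, rose by 1.24 ± 0.19. These neighbours were read only as scaled by the authors, and whether the rise of ARFGAP1 holds with spike-in scaling was not tested.

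Genes of the ER stress response gave no common direction. At 24 h 1 of 19 was called (5.26%, all genes 8.67%). This was CREB3L2, a membrane-bound transcription factor of secretory cells, which fell by 0.64 ± 0.18 (limma adjusted p = 0.0324). At 48 h 5 rose and 11 fell, so that 84.2% were called, 57.9% lower, against 70.7% and 37.8% of all genes. Among those that fell were MANF, a secreted ER stress protein, by 2.87 ± 0.21, and EIF2AK3, the ER stress kinase PERK, at least 2.73-fold lower. The highest change was 1.64, for HSP90B1, and DDIT3 rose by 1.58 ± 0.19 (limma adjusted p = 6.84e-07). Both are as scaled by the authors, and whether they hold with spike-in scaling was not tested. Of the 7 genes called at 24 h, 4 carry the element printed above. These were SRP19 and COPB1, which rose, KDELR3, which fell, and SEC62, whose direction depends on the probe set. At that time 2 of the 9 carriers tested were called higher and 2 lower. Of the 31 tested genes with a promoter without it, 3 were higher and 0 lower, and 8.67% of all genes were called. A link of the element to these calls was not tested. At 48 h the 9 carriers tested had a median change of 0.12 with 3 higher and 4 lower, and the 31 genes with a promoter without it had -1.26 with 1 higher and 24 lower. Set against the median of their own level class these medians were -0.38 and -0.56, and neither difference was tested. The 3 higher carriers, COPB1, COPB2 and KDELR3, turned negative at 48 h when arrays were scaled to spike-ins. None of them was called with arrays centred on their median. With the median of a gene's probe sets COPB1 turned negative, and SEC62, one of the 4 lower carriers, turned positive.

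SSR3 and LMAN1, the genes below the level filter, had low signal throughout. SSR3, the gamma subunit of TRAP, was at 33.7, 7.7 and 19.2 in control cells at 48 h and at 151.9, 194.2 and 498.2 with sarin, with 1 of these sarin arrays above background. LMAN1, the lectin that carries glycoproteins to the Golgi, was at 77.6, 96.9 and 56.5 at 24 h without sarin and at 49.1, 40.6 and 51.4 with it, all below background. No direction can be read for LMAN1 from these values at 24 h.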

How the data were processed

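RNA from SH-SY5Y cells was measured on 18 arrays. As deposited, each array holds linear signal intensity, which the authors obtained with MAS5 per the submitters' processing notes. Neither the MAS5 version nor the target level is given in the sources used here. On all 18 arrays the mean signal, without the outer 2% at each end, was 800.1 to 800.3. The mean log2 signal of 18 spike-in probe sets was 13.21 to 13.63 on the sarin arrays of 48 h. On the other arrays it was 10.3 to 11.96. Probe sets were named from the platform's annotation table, and the 46 member genes' Entrez identifiers matched RefSeq symbols. The members and lists were chosen with earlier results of these data known.

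Values were analysed as log2(signal + 16), which understates changes of dim genes. For each gene the probe set with the highest mean was taken, and the upper 60% of 11963 genes by level were tested, a cut at 8.494 log2 or 344.7 signal. One mean per group over the 18 arrays was estimated with limma 3.58.1 under R 4.3.3 (lmFit, then eBayes with trend; degrees of freedom 12 residual plus 7.344 prior). P-values are two-sided, with Benjamini-Hochberg adjustment over all genes tested. A second fit took all probe sets but the 68 controls. Background on an array was the level that 90% of 27 bacterial probe sets with no spike stay under. A probe set not above it on all 3 arrays of a group has only a bound there. The number of arrays limits the precision. The fit was tested on simulated data.

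Members are named freely and, of each other list, up to 3 called genes with the largest change. HSP90B1 and DDIT3 are named besides, as ER stress genes that were higher at 48 h. Alternatives were other pseudocounts, filters, scalings, probe set summaries, array weights, sets of arrays and controls, the replicate number as a block, and omission of single arrays. The difference between 48 and 24 h and the use of the 3 and 24 h controls at 48 h were added after seeing the data.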

Additional observations from a re-analysis of the deposited data

Results flagged for a closer look

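In 4 genes the sarin effect was called in opposite directions at 24 and 48 h, and the difference between the times, tested in the same limma fit, passed the threshold. The genes were picked by their calls at both times in that fit, so the p-values of the difference add no separate support. Of all genes tested, 63.7% passed the threshold for it. The difference was -1.76 on the log2 scale for SEC61B (adjusted p = 1.60e-06), -1.72 for SEC11A (adjusted p = 5.06e-05) and -3.05 for LMAN2L (adjusted p = 4.89e-04), which were higher at 24 h and lower at 48 h. For KDELR3 it was 1.73 (adjusted p = 1.43e-04), lower at 24 h and higher at 48 h. Its rise at 48 h was not called with the median of its probe sets or with arrays centred on their median. The sarin arrays at 48 h had the high 3′ to 5′ ratios and background given above, and their part in these differences was not tested. At 24 h LMAN2L was at 84 signal units on 1 control array, against 435.8 and 694.2 on the others.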

How the results depend on the processing

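At 24 h, where 7 genes were called, the count was 4 with no level filter, 3 after quantile normalization, 18 with arrays centred on their median, 1 scaled to spike-ins, 17 with array weights and 14 with the 6 arrays of that time alone. Over 125 single fits of those 7 calls 76 kept the call, 48 lost it and 1 reversed (SEC62, 0.19 with the median of its probe sets), and 0 of the 7 held in every fit. Of 35 calls at 48 h, 22 held in every fit. Reversed at 48 h were COPG1 (-0.05 with arrays centred on their median, -1.48 scaled to spike-ins), COPB1 (-1.28), COPB2 (-1.44) and KDELR3 (-1.29), all scaled to spike-ins, and with the median of probe sets COPB1 (-0.1), SEC62 (0.27) and SEC63 (0.12). Scaled to spike-ins the median of all genes at 48 h moved from -0.08 to -2.08, and with arrays centred to -0.64. The causes were not tested. Leaving out 1 array gave 0 to 0 calls at 3 h, 0 to 5 at 24 h, 31 to 34 at 48 h, 0 to 3 for 24 minus 3 h, 30 to 31 for 48 minus 24 h, 0 to 5 and 0 to 1 for control cells at 24 and 48 h against 3 h, and 0 to 3 probe sets at 24 h (6 with all arrays, 3 after quantile normalization). For 24 minus 3 h, 2 genes were called with arrays centred, 6 with array weights and 2 without the 48 h sarin arrays. For control cells at 24 against 3 h the count of 1 became 0 with no filter, after quantile normalization or with the compared arrays alone, 15 with arrays centred, 28 scaled to spike-ins, 3 with the median of probe sets, 5 with array weights and 4 without the 48 h sarin arrays. At 48 against 3 h it was 28 scaled to spike-ins and 1 with array weights. With the replicate block 7 genes were called at 24 h, 34 at 48 h and 2 between control cells at 24 and 3 h. Same-numbered arrays correlated at -0.181 to 0.298 in their deviations, so the numbers are not taken to pair them. Signal over background limits the 3 genes that no sarin array measured at 48 h. It also limits, in part, the genes that only some of these arrays measured, since 31 of 44 were above background on all 3.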
